A study of Mus musculus with 6 samples.

Results

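The genes described here are 8 mouse genes tied to follicular helper T cells: Bcl6, Ascl2, Cxcr5, Icos, Sh2d1a, Il21, Angptl2 and Sostdc1. They were chosen by name and matched by symbol to the Ensembl identifiers of the deposited count tables, in which all 8 were found among 49315 listed genes. All 8 passed the filter on low counts, which asked for at least 2 CPM (counts scaled to the same library size) and at least 10 counts in at least 1 library and left 12838 genes.

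The data were RNA-seq counts of CD4 T cells that carry the CBir1 T-cell receptor transgene, which recognises a flagellin of commensal bacteria. The study asked how memory cells of this kind differ after CAMCI, in which cells are activated by antigen while their metabolic checkpoints are inhibited. Naive donor cells (CD45.1, CD4+CD44-, CBir1 TCR Tg) were transferred on day 0 into C57BL/6 mice (CD45.2), which all received 50 ug CBir1 flagellin with 1 ug CT on days 1 and 7. A challenge with 3 ug MEP1, a multi-epitope peptide, followed on day 56, and on day 63 the donor cells were recovered from spleens by sorting. The MEP1+Metformin+Rapamycin mice, called the combination below, had been given 3 ug MEP1 on days 28 and 35, each time followed by 5 days of both metformin and rapamycin. The MEP1+Rapamycin mice had been given the same peptide with rapamycin, and the MEP1+Metformin mice with metformin. The MEP1+CMC mice had been given it with the vehicle CMC, and the No treatment mice had received neither peptide nor inhibitor on those days. The last library was a naive CD4 control. Each condition had 1 library. The sources used here give neither the number and sex of the mice behind a library, nor any pooling, nor the number of sorted cells. In the count tables the heading for No treatment speaks of no challenge, whereas its label and the protocol give one. The label was followed, so values for No treatment carry this doubt.

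Follicular helper T cells are CD4 T cells that enter B-cell follicles and help B cells make antibody in germinal centres. BCL6 is their lineage-defining transcriptional repressor, and ASCL2 is a basic helix-loop-helix factor that turns on Cxcr5. CXCR5 guides the cells to follicles along the chemokine CXCL13, ICOS and the adaptor SAP (encoded by Sh2d1a) sustain their contact with B cells, and IL-21 is the cytokine through which they act on B cells. Angptl2 and Sostdc1 encode secreted proteins, an angiopoietin-like glycoprotein and an antagonist of BMP and Wnt signalling, that mouse follicular helper cells also express.

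The start regions of the members are shown because several move together across the libraries below. RefSeq promoter windows were found for Bcl6, Ascl2, Il21 and Angptl2, and not matched for Cxcr5, Icos, Sh2d1a and Sostdc1. Each sequence is the 250 bases before the transcription start, 5′ to 3′ on the gene's strand, from RefSeq on GRCm38.p6, and capitals mark matches to any of 6 motifs searched on both strands. The Bcl6 windows lie at chr16:23988853-23989102 (minus strand, before the start that the count tables share) and at chr16:23981284-23981533 (minus strand, before a second RefSeq start 7569 bases downstream, within the gene). The Ascl2 window lies at chr7:142969265-142969514 (minus strand), the Il21 window at chr3:37232637-37232886 (minus strand) and the Angptl2 window at chr2:33215711-33215960 (plus strand, 108 bases from the start in the count tables).
Bcl6 first start: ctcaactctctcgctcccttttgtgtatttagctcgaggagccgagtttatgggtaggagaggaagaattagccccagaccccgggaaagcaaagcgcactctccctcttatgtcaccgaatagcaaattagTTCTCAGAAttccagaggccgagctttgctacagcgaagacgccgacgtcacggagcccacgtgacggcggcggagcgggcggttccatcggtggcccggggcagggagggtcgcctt
Bcl6 second start: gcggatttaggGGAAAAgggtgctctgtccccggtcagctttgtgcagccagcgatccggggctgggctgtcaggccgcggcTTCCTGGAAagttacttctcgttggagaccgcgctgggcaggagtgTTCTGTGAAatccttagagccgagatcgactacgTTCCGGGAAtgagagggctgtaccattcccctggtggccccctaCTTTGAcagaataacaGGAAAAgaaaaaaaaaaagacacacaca
Ascl2: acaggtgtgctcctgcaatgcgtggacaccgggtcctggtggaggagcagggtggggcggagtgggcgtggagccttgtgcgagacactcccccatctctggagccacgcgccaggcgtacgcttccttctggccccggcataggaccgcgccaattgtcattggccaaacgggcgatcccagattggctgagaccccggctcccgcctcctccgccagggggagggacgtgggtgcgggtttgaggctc
Il21: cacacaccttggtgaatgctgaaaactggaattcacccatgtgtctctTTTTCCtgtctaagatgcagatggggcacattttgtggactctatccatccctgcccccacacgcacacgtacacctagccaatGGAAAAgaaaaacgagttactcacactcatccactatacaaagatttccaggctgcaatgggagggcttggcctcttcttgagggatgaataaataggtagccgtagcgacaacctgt
Angptl2: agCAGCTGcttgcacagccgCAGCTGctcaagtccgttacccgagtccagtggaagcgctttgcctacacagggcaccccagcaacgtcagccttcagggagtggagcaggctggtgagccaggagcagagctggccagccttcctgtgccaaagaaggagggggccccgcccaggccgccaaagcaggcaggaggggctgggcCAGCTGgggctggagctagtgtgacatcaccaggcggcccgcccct

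The motifs were the STAT palindrome TTCNNNGAA, the AP-1 site TGANTCA, the NFAT core GGAAAA, the E-box CAGCTG of ASCL-type factors, the TCF/LEF core CTTTGA and the FOXO core TGTTTAC. Among all 32851 RefSeq windows of this length they matched 7.02%, 6.75%, 20.4%, 13.0%, 13.8% and 3.17% of windows, in that order. The first Bcl6 window held 1 STAT match, 118 bases before the start, and the second held 3, at 168, 122 and 88 bases, with 2 NFAT cores and 1 TCF/LEF core. The Il21 window held 2 NFAT cores, at 202 and 118 bases before the start. Angptl2 had 3 E-box matches, at 248, 230 and 46 bases, and the Ascl2 window matched none of the 6 motifs. No marked match overlapped another. Such matches describe letters in these windows and say nothing about binding in these cells.

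Total counts lay between 60622310 in No treatment and 26139000 in the naive library, so levels are given as CPM scaled with edgeR's TMM factors (TMM CPM), the trimmed means of log ratios between libraries. Ratios between 2 libraries are log2 ratios of TMM CPM with exact 95% intervals for the counts. These intervals cover counting error only, because reads without molecular identifiers can repeat 1 molecule and each condition stands on 1 library. A gene is called higher or lower by the size rule, a ratio of at least 2-fold whose interval leaves out 0. Features of the libraries touch several results. The libraries differed in sex-linked genes: Xist, the X-inactivation RNA, was at 0.323, 0.486, 0.218, 262, 24.2 and 43.1 TMM CPM in the combination, MEP1+Rapamycin, MEP1+Metformin, MEP1+CMC, No treatment and naive libraries. The Y-linked gene Ddx3y was at 87.0, 62.0, 95.8, 0.307, 35.9 and 0.377 TMM CPM in the same order, and Eif2s3y, Uty and Kdm5d had the same split. The 3 inhibitor libraries thus held Y-linked transcripts and almost no Xist, MEP1+CMC and the naive control the reverse, and No treatment both. In ratios between these 3 kinds of library, sex and condition cannot be told apart. The transferred libraries held 1.00% to 3.13% of their counts in 5 rRNA-like loci, and the naive library 15.4%. Fewer cells of a type and less RNA per cell cannot be told apart in such bulk libraries.

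Of the transcription factors, Bcl6 (chromosome 16, 23965052 to 23988852, minus strand, GRCm38) had 18.3 TMM CPM in the combination, 12.7 in MEP1+Rapamycin, 22.3 in MEP1+Metformin, 30.4 in MEP1+CMC, 17.0 in No treatment and 17.8 in the naive control. The naive level of this lineage factor thus lay among those of the transferred cells, and its highest transferred library, MEP1+CMC, was 2.39-fold above its lowest, MEP1+Rapamycin. Ascl2 (chromosome 7, 142966829 to 142969264, minus strand) was far rarer, with 54, 76, 95, 333, 36 and 2 counts in the combination, MEP1+Rapamycin, MEP1+Metformin, MEP1+CMC, No treatment and naive libraries. These were 0.968, 2.05, 1.88, 5.68, 0.626 and 0.108 TMM CPM in the same order. MEP1+CMC therefore stood above all the others for Ascl2, and the spread among transferred libraries was 9.08-fold, wider than for any other member.

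The chemokine receptor gene Cxcr5 (chromosome 9, 44511787 to 44561877, minus strand) had 71.0 TMM CPM in the combination, 42.9 in MEP1+Rapamycin, 97.4 in MEP1+Metformin, 179 in MEP1+CMC, 110.0 in No treatment and 5.54 in the naive control. Its order among transferred libraries put MEP1+CMC at the top and MEP1+Rapamycin 4.19-fold below it. The costimulatory receptor gene Icos (chromosome 1, 60977927 to 61000320, plus strand) had 166, 132, 159.6, 167, 250.0 and 40.5 TMM CPM in the combination, MEP1+Rapamycin, MEP1+Metformin, MEP1+CMC, No treatment and naive libraries. For Icos the highest library was No treatment, 1.89-fold above MEP1+Rapamycin, and the combination and MEP1+CMC did not differ beyond counting error (log2 ratio -0.0072, interval -0.048 to 0.034).

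Sh2d1a (chromosome X, 42502453 to 42529330, plus strand), which encodes the adaptor of the SLAM receptors, had 112 TMM CPM in the combination, 84.5 in MEP1+Rapamycin, 128 in MEP1+Metformin, 239.9 in MEP1+CMC, 232 in No treatment and 91.1 in the naive control. It fell into a high pair, MEP1+CMC and No treatment, and a lower group that held all 3 inhibitor libraries and the naive control. The gene is X-linked. Xist was at 262 TMM CPM in MEP1+CMC and 24.2 in No treatment, 0.218 to 0.486 in the 3 inhibitor libraries and 43.1 in the naive control. The part of sex in the Sh2d1a differences was not tested.

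Among the secreted products, Il21 (chromosome 3, 37222759 to 37232636, minus strand) had 23.8 TMM CPM in the combination, 12.3 in MEP1+Rapamycin, 37.9 in MEP1+Metformin, 49.3 in MEP1+CMC, 13.0 in No treatment and 0.0538, a single count, in the naive control. MEP1+Rapamycin and No treatment were the low transferred libraries and did not differ beyond counting error (log2 ratio -0.080, interval -0.25 to 0.090). Angptl2 (chromosome 2, 33216069 to 33247717, plus strand) had 79.1, 39.5, 174, 165, 121 and 0.377 TMM CPM in the combination, MEP1+Rapamycin, MEP1+Metformin, MEP1+CMC, No treatment and naive libraries. The 2 libraries with rapamycin were the lowest transferred ones for Angptl2, and MEP1+Metformin was 4.41-fold above MEP1+Rapamycin. Sostdc1 (chromosome 12, 36314169 to 36318452, plus strand) had 90.9 TMM CPM in the combination, 51.1 in MEP1+Rapamycin, 59.5 in MEP1+Metformin, 78.0 in MEP1+CMC, 57.0 in No treatment and 0.377 in the naive control. It was the member with the narrowest spread among transferred libraries, 1.78-fold, and the one whose highest level lay in the combination.

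**Figure D1:**
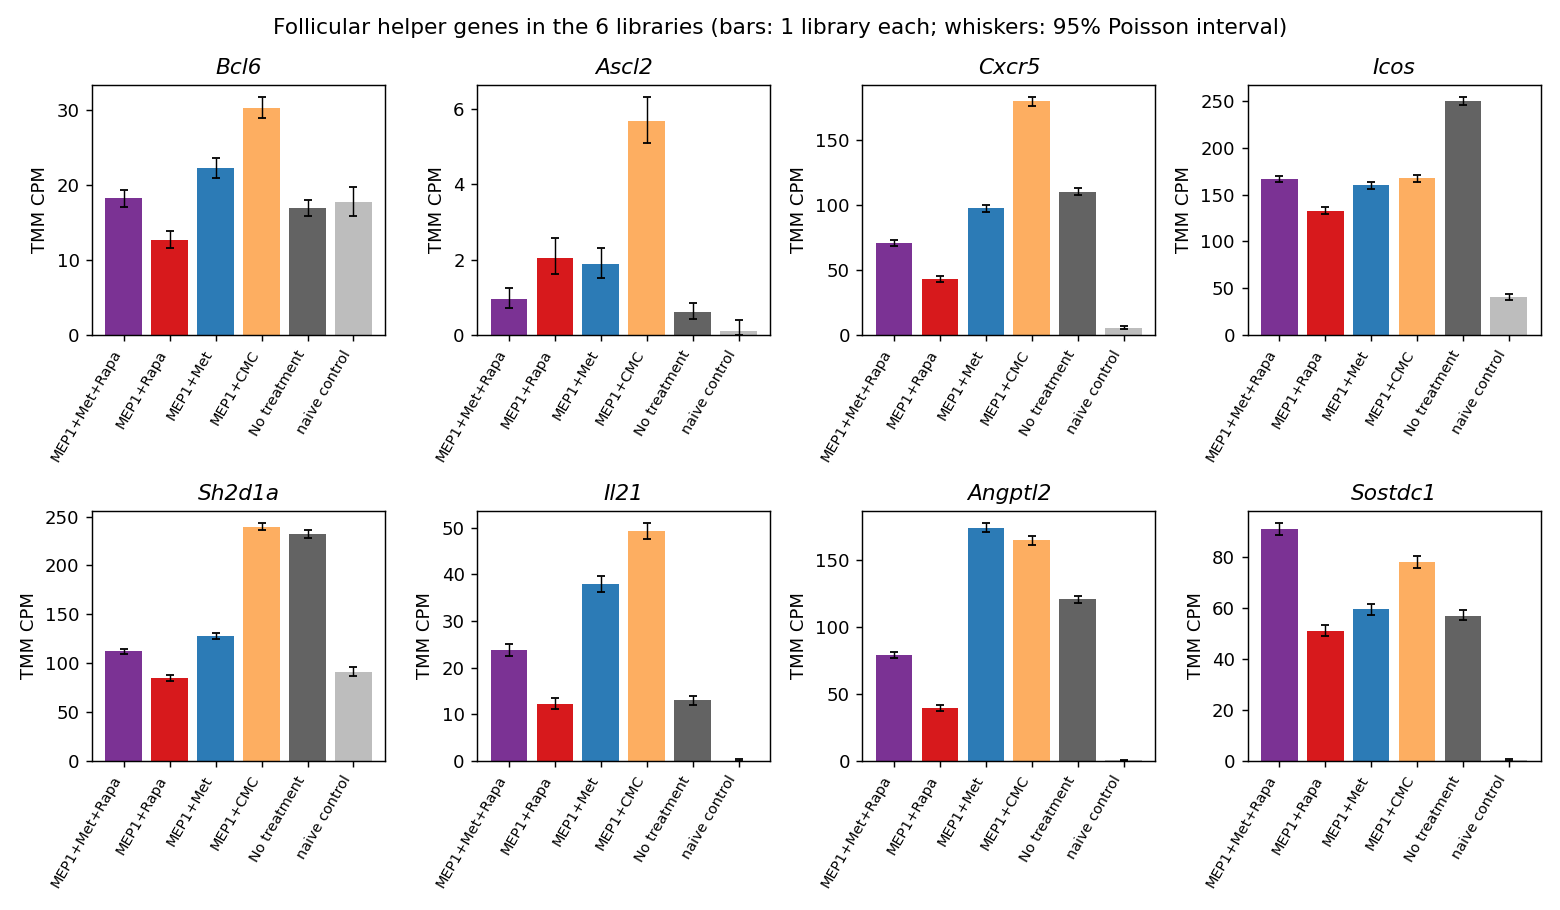
TMM CPM (vertical axis, starting at 0) of the 8 genes in the combination, MEP1+Rapamycin, MEP1+Metformin, MEP1+CMC, No treatment and naive libraries, with 1 bar per library and whiskers for the exact 95% Poisson interval of the count. MEP1+CMC is highest for Bcl6, Ascl2, Cxcr5, Sh2d1a and Il21, and MEP1+Rapamycin is the lowest transferred library for all genes shown except Ascl2. Of all genes past the filter, 61.3% were lower in MEP1+Rapamycin than in MEP1+CMC, a share for that pair of libraries only. The shares of all genes with their highest or lowest level in a given library are not given.

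Across members, MEP1+CMC was the highest library for 5 of 8 and MEP1+Rapamycin the lowest transferred library for 7 of 8. Low values in MEP1+Rapamycin were common. Of all genes, 61.3% were lower there than in MEP1+CMC, 63.4% than in No treatment and 59.0% than in MEP1+Metformin. The shares of all genes with their highest or lowest level in a given library are not given here. Levels of different genes were compared per kilobase of exon. On that scale Icos, Cxcr5, Sh2d1a and Sostdc1 filled ranks 1 to 4 in MEP1+Rapamycin, MEP1+CMC and No treatment, with Icos at 38.6, 48.7 and 72.9 TMM CPM per kilobase. Sostdc1 led in the combination with 51.9 TMM CPM per kilobase, against 48.5 for Icos. Ascl2 was the lowest member in every transferred library, at 3.50 TMM CPM per kilobase in MEP1+CMC and 0.385 in No treatment. In the naive control Sh2d1a led with 16.6 and Icos followed with 11.8 TMM CPM per kilobase, and Bcl6 came next with 2.65. The rank of Sh2d1a depended on the length used, since per kilobase of its longest coding transcript (1223 bases, against 5505 bases of exon in the files) it ranked first in all 6 libraries.

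Some reads could belong to neighbours, since no source used here gives the strand setting of the counting. Sh2d1a shares 1465 exon bases with Tenm1 on the opposite strand, which had 0 to 48 counts in a library. Il21 shares 469 exon bases with the antisense gene Gm12534, which had 0 counts in all 6 libraries. Bcl6 shares 21 bases with Gm37419 (6 to 25 counts), and Angptl2 lies within Ralgps1 on the opposite strand but shares no exon base with it.

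No treatment was first set against the naive control, to see what transfer, immunisation and, by the label, the challenge on day 56 had left in the cells. By the size rule 7 of 8 members were higher in No treatment and 0 were lower, against 16.2% higher and 7.53% lower among all 12838 genes. Il21, Ascl2, Angptl2 and Sostdc1, with 1 to 7 naive counts, passed the filter on low counts only through transferred libraries, so their count is no support, and of the 4 others 3 were higher. The secreted products differed most: Angptl2 had a log2 ratio of 8.32 (interval 7.28 to 9.64), Il21 7.92 (5.43 to 13.22, resting on 1 naive count) and Sostdc1 7.24 (6.20 to 8.56). Cxcr5 followed with 4.31 (4.03 to 4.61), then Icos with 2.63, Ascl2 with 2.54 (0.58 to 5.64, resting on 2 naive counts) and Sh2d1a with 1.35. Bcl6 stood apart with -0.064 (interval -0.25 to 0.12), within counting error of 0, and had 0.35 when scaled by library totals. Markers of other cells separated these libraries too, with a macrophage and dendritic cell sum of 2575 TMM CPM in No treatment and 37.7 in the naive control and an erythroid sum of 1275 and 273, and their part in these ratios was not tested.

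The 5 transferred libraries together were also set against the naive one in edgeR's quasi-likelihood model, whose spread is that between the transferred libraries and not between replicates. With Benjamini-Hochberg adjustment over all genes, 3 of 8 members rose and 0 fell, against 4.19% of all genes that rose and 5.62% that fell. The same 4 members with under 10 naive counts were tested only because they are high in transferred cells. Without them, under the stricter filter of 10 counts in all 6 libraries, 2 of 4 members rose, Icos and Cxcr5. Of all 12734 genes past that filter 694 rose and 950 fell. Over all genes 538 rose and 721 fell with TMM scaling, and 2482 rose and 190 fell with library totals. Sostdc1 rose by 7.47 on the log2 scale (SE 0.714, edgeR adjusted p = 0.000557, higher in 5 of 5 libraries). Its adjusted p was 2.5e-29 to 0.00516 over the edgeR and DESeq2 alternatives. Icos rose by 2.11 (SE 0.379, edgeR adjusted p = 0.0103, higher in 5 of 5, alternatives 8.2e-11 to 0.0183).

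Angptl2 rose by 8.25 (SE 1.71, edgeR adjusted p = 0.0368, higher in 5 of 5), but this call was lost in edgeR without MEP1+CMC, without MEP1+Metformin or without the combination (adjusted p up to 0.0765). Cxcr5 had a log2 fold change of 4.18 and missed the threshold (edgeR adjusted p = 0.0552, alternatives 5.94e-06 to 0.13), as did Il21 with 8.92 (edgeR adjusted p = 0.0852, alternatives 4.44e-07 to 0.174). The remaining members were further from it: Ascl2 had 4.36, Sh2d1a 0.81 and Bcl6 0.19 (edgeR adjusted p = 0.361, 0.413 and 0.797). The number of members called was 2 to 5 when 1 transferred library was left out, with 2 without MEP1+Metformin, 2 without the combination and 5 without MEP1+Rapamycin.

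MEP1+CMC was set against No treatment to see what the peptide had left without an inhibitor. Only Ascl2 and Il21 passed the size rule, both higher, so 2 of 8 were higher and 0 lower, against 7.76% higher and 3.72% lower among all genes. Ascl2 reached the filter on low counts only through MEP1+CMC (5.68 TMM CPM) and MEP1+Rapamycin (2.05), so its place in this count is no support. Ascl2 had a log2 ratio of 3.18 (interval 2.68 to 3.72) and Il21 one of 1.92 (1.81 to 2.04). Ratios above 0 that stayed under 2-fold were those of Bcl6 (0.84), Cxcr5 (0.71), Sostdc1 (0.45), Angptl2 (0.45) and Sh2d1a (0.046). Icos went the other way with -0.58 (interval -0.62 to -0.54). The members' median was 0.58, against -0.04 for all genes. Transcripts of other cells also separated these 2 libraries: the summed level of 9 macrophage and dendritic cell markers was 500.1 TMM CPM in MEP1+CMC and 2575 in No treatment, that of 3 erythroid markers 276 and 1275, and their part in these ratios was not tested.

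All 4 libraries given MEP1 on days 28 and 35 were compared with No treatment in edgeR's quasi-likelihood model. None of the members was called (0 of 8), against 0.6% of all genes that rose and 1.3% that fell. At an unadjusted edgeR p below 0.05 there was 1 of 8 members, beside 2237 of all 12838 genes. DESeq2 called 1 of 8, beside 835 rising and 271 falling of all genes. The member nearest to a call was Icos, with a log2 fold change of -0.68 (SE 0.205, edgeR adjusted p = 0.149, lower in 4 of 4 libraries). DESeq2 gave Icos an adjusted p = 0.0118, the lowest of its alternatives, which reached 0.32. Ascl2 had 2.10 (edgeR adjusted p = 0.344) and Il21 1.25 (edgeR adjusted p = 0.47).

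MEP1+Rapamycin was set against MEP1+CMC to see what rapamycin, an inhibitor of mTOR complex 1, added to the peptide. All 8 log2 ratios were below 0, and 6 of 8 members were lower by the size rule and 0 higher, against 5.83% lower and 5.14% higher among all genes. The members' median was -1.49, against -0.13 for all genes. Cxcr5, Angptl2 and Il21 were lower by about the same amount, with log2 ratios of -2.07 (interval -2.14 to -1.99), -2.06 (-2.14 to -1.98) and -2.00 (-2.15 to -1.86). In each of these, 1.62% to 1.73% of all genes had a lower ratio. Sh2d1a had -1.51 (interval -1.56 to -1.45), Ascl2 -1.47 (-1.85 to -1.11) and Bcl6 -1.26 (-1.41 to -1.11). The ratios of Sostdc1 (-0.61) and Icos (-0.33) stayed under 2-fold, and 31.9% of all genes had a lower ratio than Icos. Inhibitor and any effect of sex cannot be told apart in ratios over MEP1+CMC. The erythroid sum was 69.7 TMM CPM in MEP1+Rapamycin and 276 in MEP1+CMC. The 7 CD4 T-cell identity genes were also lower, with sums of 5477 and 7343 and log2 ratios from -0.66 (Cd4) to -0.14 (Cd3g). Macrophage and dendritic cell markers summed to 258 and 500.1, and NK-cell markers to 2.29 and 8.84. The part of these differences in the members' ratios was not tested.

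Set against No treatment instead, MEP1+Rapamycin had 3 of 8 members lower and 1 higher, against 7.27% lower and 9.04% higher among all genes. Angptl2 (-1.61, interval -1.69 to -1.53), Sh2d1a (-1.46, -1.52 to -1.40) and Cxcr5 (-1.36, -1.44 to -1.28) were the lower ones, and Ascl2 was higher (1.71, 1.12 to 2.33). Because Ascl2 reached the filter on low counts only through MEP1+CMC and MEP1+Rapamycin, its place among the higher genes is no support. Icos had -0.92, Bcl6 -0.42, Sostdc1 -0.16 and Il21 -0.080. The last 2 had values above 0 with library totals (0.11 and 0.19) and with DESeq2 size factors (0.018 and 0.096). Thus the members that were higher in MEP1+CMC than in No treatment split in MEP1+Rapamycin, where Il21 lay at the No treatment level and Ascl2 above it. The macrophage and dendritic cell sum was 258 TMM CPM in MEP1+Rapamycin and 2575 in No treatment, the erythroid sum 69.7 and 1275, and their part in these ratios was not tested.

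MEP1+Metformin was set against MEP1+CMC to see the same for metformin, which inhibits mitochondrial complex I. Ascl2 alone passed the size rule, so 1 of 8 was lower and 0 higher, against 2.96% lower and 2.65% higher among all genes. Its log2 ratio was -1.59 (interval -1.94 to -1.26). It reached the filter on low counts only through MEP1+CMC (5.68 TMM CPM) and MEP1+Rapamycin (2.05), so this count is no support. Sh2d1a (-0.91) and Cxcr5 (-0.88) stayed just under 2-fold, followed by Bcl6 (-0.45), Sostdc1 (-0.39), Il21 (-0.38) and Icos (-0.066, which changes sign when scaled by library totals). Angptl2 had 0.081 (interval 0.039 to 0.12). The members' median was -0.42, against -0.04 for all genes.

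With both inhibitors, 5 of 8 members were lower than in MEP1+CMC and 0 higher, against 3.68% lower and 3.01% higher among all genes. One of them, Ascl2, reached the filter on low counts only through MEP1+CMC and MEP1+Rapamycin, so its place in this count is no support. Ascl2 had a log2 ratio of -2.55 (interval -2.99 to -2.13), Cxcr5 -1.34, Sh2d1a -1.10, Angptl2 -1.06 and Il21 -1.05. The last 3 lie close to the 2-fold bound, and with library totals only 2 of 8 members passed the rule. Bcl6 had -0.73, Icos -0.0072 (0.11 with library totals) and Sostdc1 0.22. These 3 comparisons with MEP1+CMC share that library, so likeness between them is not independent.

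A pair of comparisons that share no library can be set side by side. Rapamycin without metformin is MEP1+Rapamycin over MEP1+CMC, and rapamycin with metformin is the combination over MEP1+Metformin. In the second of these 1 of 8 members was lower by the size rule and 0 higher, against 1.68% lower and 1.25% higher among all genes. That member was Angptl2, with a log2 ratio of -1.14 (interval -1.19 to -1.09), and it was the one lower past 2-fold in both comparisons. Ascl2 had -0.96 (interval -1.47 to -0.46), Il21 -0.67 (-0.77 to -0.57), Cxcr5 -0.46 (-0.52 to -0.40), Bcl6 -0.29 and Sh2d1a -0.19. Sostdc1 had 0.61 (0.55 to 0.68), the opposite sign of its ratio without metformin, and Icos had 0.059 (0.015 to 0.10). Xist was near 0 in both libraries of this pair, at 0.323 TMM CPM in the combination and 0.218 in MEP1+Metformin.

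The log2 ratio with metformin was subtracted from that without it, gene by gene. The difference was below 0 for 8 of 8 members, as it was for 64.0% of all genes. Its median over the members was -1.10, against -0.17 over all genes. Cxcr5 had -1.61 (interval -1.71 to -1.51), Il21 -1.33, Sh2d1a -1.32, Sostdc1 -1.22, Bcl6 -0.97, Angptl2 -0.92, Ascl2 -0.51 (-1.11 to 0.091) and Icos -0.39. Cxcr5 thus had the difference furthest from 0, while that of Ascl2 was within counting error. The same difference describes metformin with and without rapamycin, and with 1 library in each condition it has no replicate check. It also rests on MEP1+CMC, which differed from the other libraries used here in Xist and Y-linked genes, so any effect of sex cannot be told apart in it.

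Metformin with rapamycin is the combination over MEP1+Rapamycin, where 1 of 8 members was higher and 1 lower, against 3.33% higher and 2.99% lower among all genes. Angptl2 was higher with a log2 ratio of 1.00 (interval 0.92 to 1.09), at the 2-fold bound itself, and Ascl2 was lower with -1.08 (-1.61 to -0.56). The lower count is no support, since Ascl2 reached the filter on low counts only through MEP1+CMC and MEP1+Rapamycin. Angptl2 no longer passed with DESeq2 size factors or library totals. Il21 had 0.95, Sostdc1 0.83, Cxcr5 0.73, Bcl6 0.52, Sh2d1a 0.41 and Icos 0.33. In 6 of 8 members the metformin ratio was below 0 without rapamycin and above 0 with it, with both intervals leaving out 0, which held for 16.95% of all genes; among the 6, Icos changes sign without rapamycin when scaled by library totals. Ascl2 had a ratio below 0 in both and Angptl2 above 0 in both. The ratios without rapamycin are over MEP1+CMC, where sex and inhibitor cannot be told apart.

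**Figure D2:**
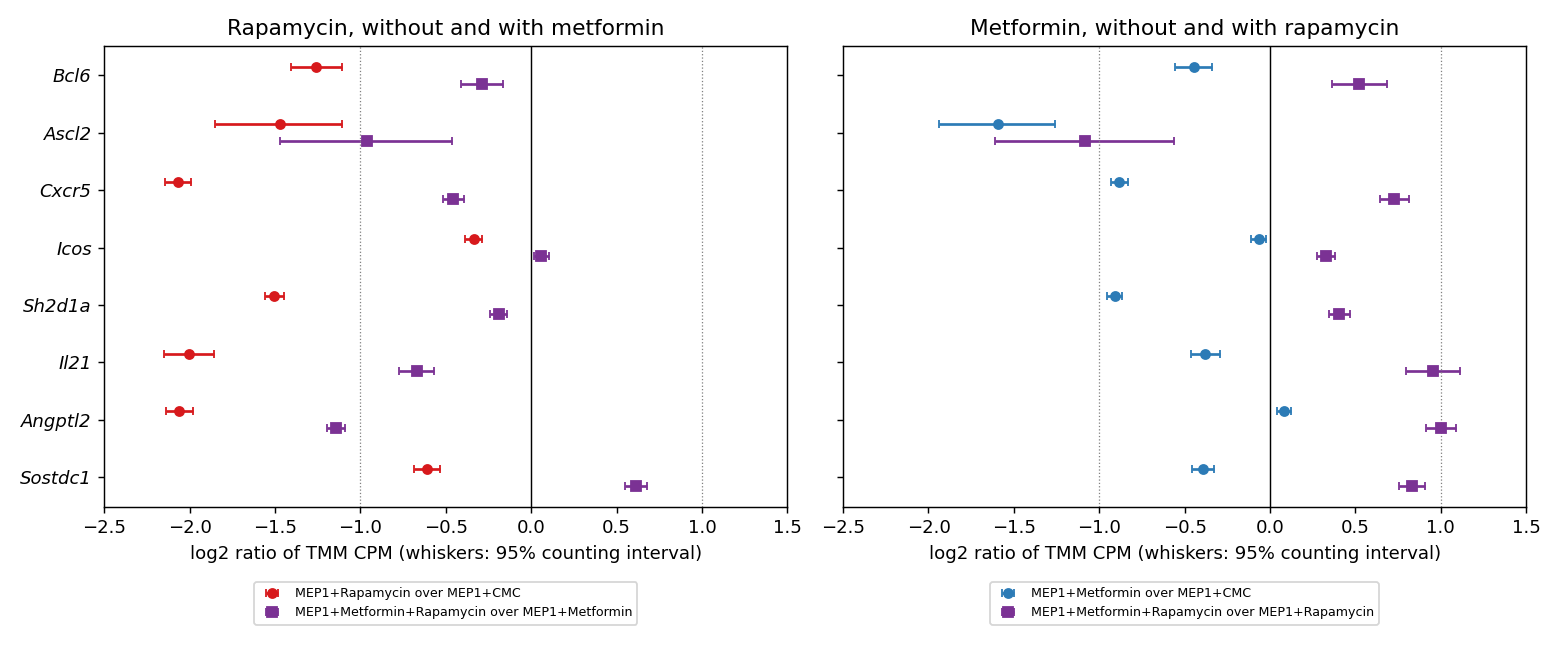
Log2 ratios of TMM CPM (horizontal axis) with 95% counting intervals for the 8 genes; left, rapamycin without metformin (circles) and with it (squares), right, metformin without rapamycin (circles) and with it (squares); dotted lines mark 2-fold. On the left 6 circles lie past -1 and 1 square, Angptl2, does; on the right 6 genes have their circle below 0 and their square above it, of which the Icos circle turns with library totals.

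In an additive edgeR quasi-likelihood model of these 4 libraries the rapamycin term called 1 of 8 members, which fell, against 0.148% of all genes that fell and 0.0545% that rose. Angptl2 fell by 1.60 on the log2 scale (SE 0.242, edgeR adjusted p = 0.00946, lower in 2 of 2 rapamycin libraries), with 4.21e-09 to 0.0307 over the alternatives. The term for Il21 was -1.32 (SE 0.326, edgeR adjusted p = 0.39), and only DESeq2 called it (adjusted p = 0.00674). Cxcr5 had -1.26 (edgeR adjusted p = 0.839), Ascl2 -1.25 (edgeR adjusted p = 0.58), Sh2d1a -0.85 (edgeR adjusted p = 0.74) and Bcl6 -0.77 (edgeR adjusted p = 0.521). Unadjusted edgeR p was below 0.05 for 5 of 8 members, beside 808 of all 12838 genes. The metformin term called 0 of 8 (and 0 of 8 by DESeq2), against 0.0623% of all genes that rose and 0.101% that fell. At an unadjusted edgeR p below 0.05 it had 2 of 8 members, beside 923 of all 12838 genes. Its largest member value was the -1.39 of Ascl2 (edgeR adjusted p = 0.676). Over all genes the metformin term had 8 rising and 13 falling, and 3 rising and 9 falling with library totals. With 4 libraries and 3 coefficients the model has 1 residual degree of freedom, which is the departure from additivity itself.

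Other genes of the same programme were followed in a list of 29 genes linked to follicular helper cells and a list of 15 that oppose them or are low in them. In No treatment over the naive control 11 of the 29 linked genes were higher and 1 lower, with a median of 0.68, beside 16.2% higher, 7.53% lower and a median of 0.08 among all genes. The cytokine gene Il4 had a log2 ratio of 8.06 (resting on a single naive count), the transcription factor gene Maf 7.00, Tox2 5.14 and the inhibitory receptor gene Pdcd1 2.60, whereas Lef1, a factor also active in naive T cells, had -1.54. Il4 and Maf, at 0.0538 and 0.484 TMM CPM in the naive control, passed the filter only through transferred libraries, so their place among the 11 is no support. By role, 5 of 9 surface receptors and help molecules were higher, 3 of 9 transcription factors, 2 of 4 SLAM receptors and SAP partners, 1 of 4 genes of ICOS signalling and 0 of 3 cytokine receptors. Of the 15 opposing genes 5 were higher and 1 lower, beside the same shares of all genes, among them the Th1 factor gene Tbx21 (4.62), the IL-2 receptor gene Il2rb (2.45) and the lymph node homing receptor gene Ccr7 (-1.69). Tbx21, at 0.969 TMM CPM in the naive control, likewise passed the filter only through transferred libraries.

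In MEP1+CMC over No treatment 1 of 29 linked genes was higher, a share below the 7.76% of all genes. It was Pdcd1, with 274 TMM CPM in MEP1+CMC and 106 in No treatment (log2 ratio 1.36). Of the opposing genes 2 of 15 were higher, beside the same 7.76%. Prdm1, whose product BLIMP-1 represses Bcl6, had 56.6 TMM CPM in MEP1+CMC and 14.0 in No treatment (2.02), and the IL-2 receptor gene Il2ra had 1.37.

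MEP1+Rapamycin over MEP1+CMC had 6 of 29 linked genes lower and 0 higher, with a median of -0.31, beside 5.83% lower, 5.14% higher and a median of -0.13 among all genes. Tox2, a factor that acts with Bcl6, had 23.5 TMM CPM in MEP1+Rapamycin and 79.5 in MEP1+CMC (log2 ratio -1.76). Pdcd1 had 108 and 274 TMM CPM in the same libraries (-1.34), Maf 47.1 and 119 (-1.34), and S1pr2, a receptor that keeps cells in germinal centres, 24.5 and 61.7 (-1.33). By role these were 3 of 9 transcription factors, 2 of 9 surface molecules and 1 of 4 SLAM receptors and SAP partners, with 0 of 3 cytokine receptors and 0 of 4 genes of ICOS signalling. Opposing genes were lower in 2 of 15 and higher in 0, beside the same shares, namely Prdm1 (-2.46) and Il2rb (-1.22). The opposing list had a median of 0.17, while Prdm1, like Bcl6, was lower. Over No treatment, MEP1+Rapamycin had 2 of 29 linked genes lower, no more than the 7.27% of all genes, namely Tox2 (-1.72) and the purinergic receptor gene P2rx7 (-1.06), and of the opposing genes Il2ra was higher (2.02) and Tbx21 lower (-1.22).

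**Figure D3:**
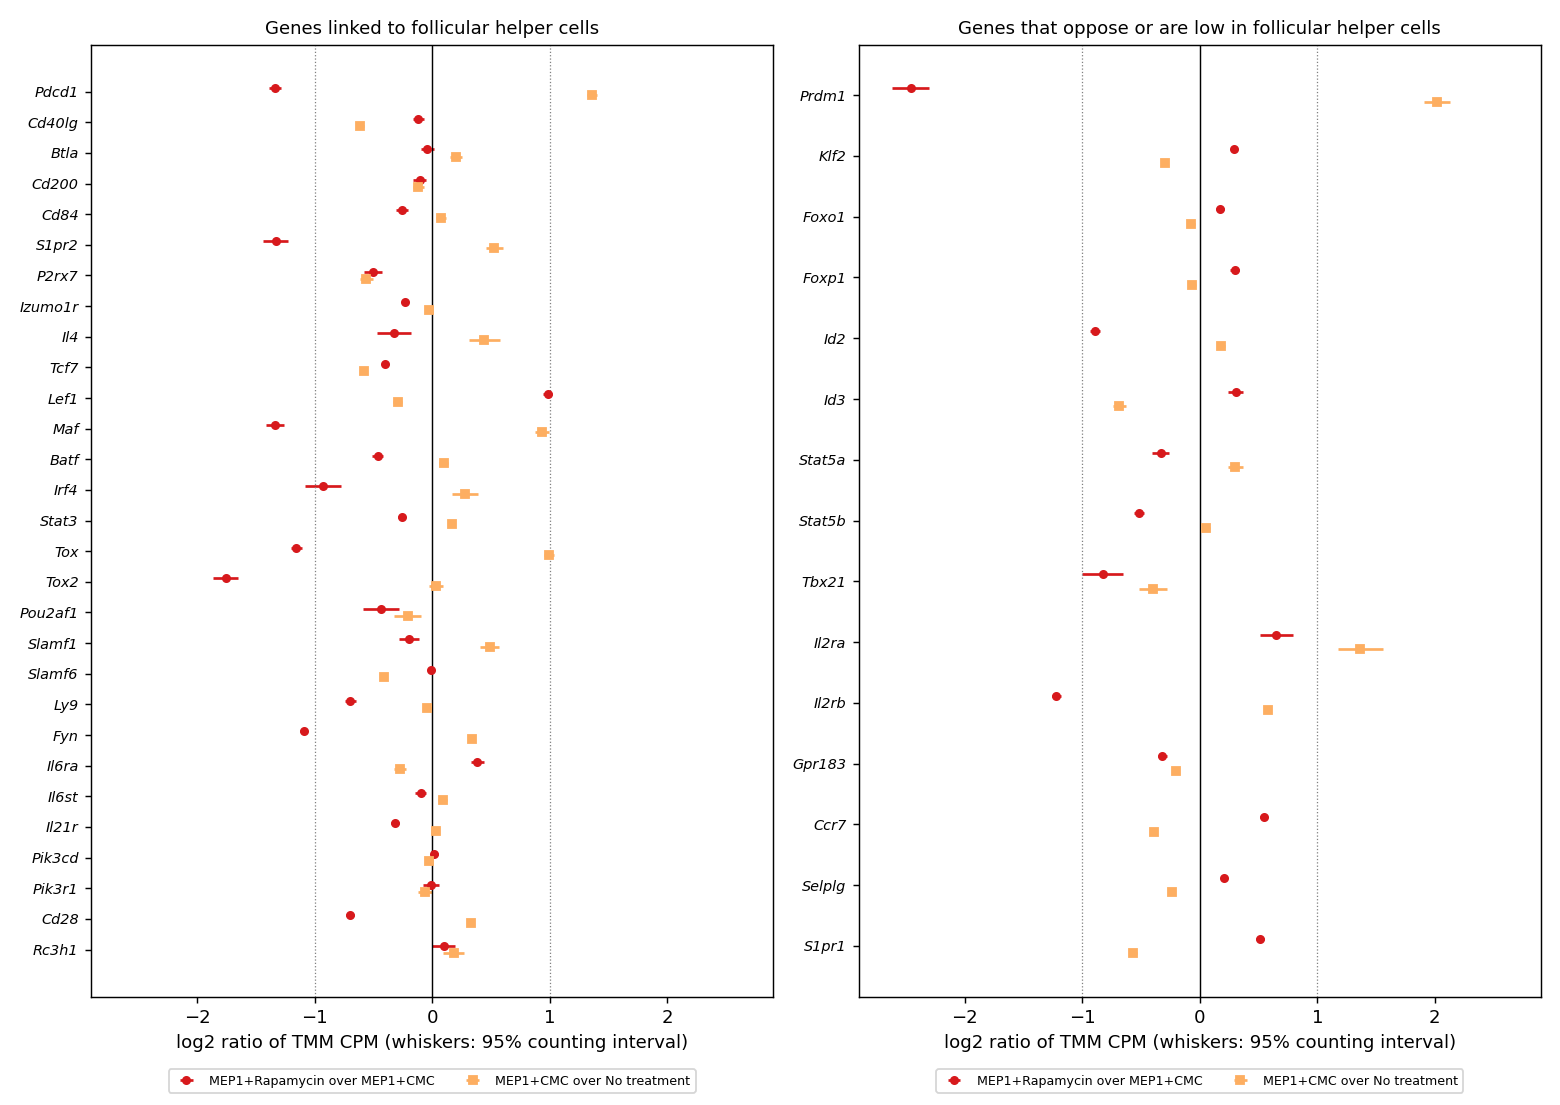
Log2 ratios of TMM CPM (horizontal axis) with 95% counting intervals for 29 genes linked to follicular helper cells (left) and 15 opposing genes (right), in MEP1+Rapamycin over MEP1+CMC (circles) and MEP1+CMC over No treatment (squares); dotted lines mark 2-fold. Prdm1 has the most distant points of the right panel, 2.02 and -2.46, and 6 circles of the left panel lie past -1.

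Where metformin was involved few genes passed the rule, in these lists and among all genes. MEP1+Metformin over MEP1+CMC had 0 of 29 linked genes past it and 1 of 15 opposing genes lower, Prdm1 (-1.21). Among all genes 2.96% were lower and 2.65% higher. The combination over MEP1+CMC had 1 of 29 lower, Maf (-1.36), and 1 of 15 lower, Prdm1 (-1.26), beside 3.68% lower and 3.01% higher among all genes. The combination over MEP1+Metformin had 0 of 29 and 0 of 15 past the rule, beside 1.68% lower and 1.25% higher among all genes. The combination over MEP1+Rapamycin had 0 of 29 past it with a median of 0.34, and 2 of 15 higher, Prdm1 (1.20) and the signal transducer gene Stat5a (1.05). Among all genes 3.33% were higher and 2.99% lower in that comparison.

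Markers fixed for the sorted cell type and for other cells were read in the same libraries. The 7 CD4 T-cell identity genes summed to 6103, 5477, 5859.9, 7343, 7885 and 7189.9 TMM CPM in the combination, MEP1+Rapamycin, MEP1+Metformin, MEP1+CMC, No treatment and naive libraries, so the label as CD4 T cells held in each. B cells also express Cxcr5 and Bcl6, and the 10 B-cell markers summed to 105, 36.5, 33.9, 57.0, 32.3 and 125 TMM CPM in that order. The naive control had the highest B-cell sum and the lowest Cxcr5 level. MEP1+CMC, with the highest Cxcr5, had a B-cell sum below that of the combination and above those of MEP1+Rapamycin, MEP1+Metformin and No treatment. The part of B-cell RNA in the levels of Cxcr5 and Bcl6 was not tested. The combination over MEP1+Rapamycin had 7 of 8 tested B-cell markers higher, against 3.33% of all genes. Its Cxcr5 and Bcl6 ratios were above 0, and the part of B-cell RNA in those ratios was not tested.

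Other lists moved as well. The 9 macrophage and dendritic cell markers summed to 323, 258, 300.4, 500.1, 2575 and 37.7 TMM CPM in the combination, MEP1+Rapamycin, MEP1+Metformin, MEP1+CMC, No treatment and naive libraries, and the 3 erythroid markers to 38.8, 69.7, 40.9, 276, 1275 and 273. Both lists were highest in No treatment, the library with the highest Icos. The 4 plasma-cell markers summed to 73.0, 36.1, 13.1, 52.5, 82.3 and 13.6 TMM CPM in that order. The 7 regulatory T-cell markers, some of which follicular regulatory cells share with follicular helper cells, summed to 593, 650.5, 551, 644.5, 370.3 and 174 TMM CPM in that order. The genes of this list did not move together. In MEP1+Rapamycin over MEP1+CMC the lineage factor gene Foxp3 had a log2 ratio of 1.15 and the receptor gene Gpr83 1.15, whereas the cytokine gene Il10 had -3.96, and Nrp1 (0.49), Tnfrsf18 (0.16), Ikzf2 (-0.51) and Ctla4 (-0.88) did not pass the size rule. The 2 CD8 T-cell markers stayed at 3.23 to 6.61 TMM CPM in transferred libraries and 30.3 in the naive control, and the 3 NK-cell markers at 1.63 to 10.3 in transferred libraries and 0 in the naive control. Whether any of these cells contributed to the members' counts was not tested.

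**Figure D4:**
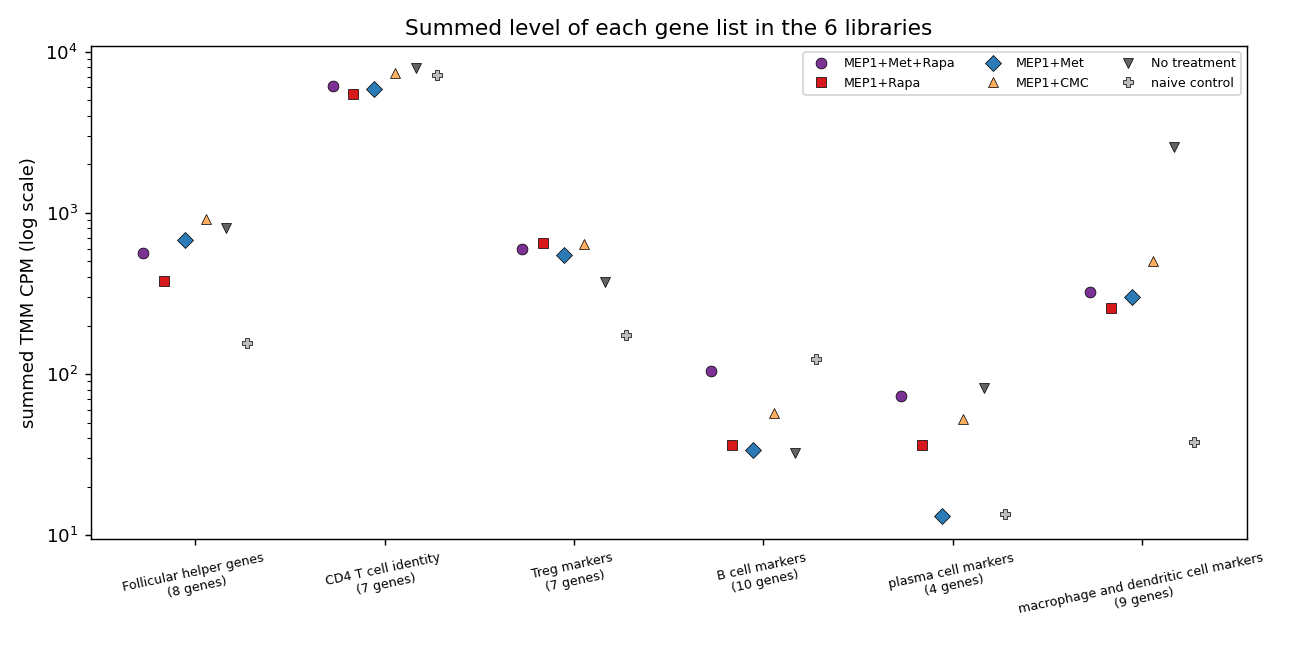
Summed TMM CPM (vertical log axis) of the follicular helper genes and of 5 marker lists, with 1 symbol per library in the order combination, MEP1+Rapamycin, MEP1+Metformin, MEP1+CMC, No treatment and naive control. The sum of the follicular helper genes is lowest in the naive control (156) and, of the transferred libraries, in MEP1+Rapamycin (378). The B-cell sum is highest in the naive control (125).

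The genes whose pattern was most like that of each member were found by the root mean square difference of log2 (TMM CPM + 0.5) over the 6 libraries, each gene centred on its own mean. For Cxcr5 they were B4galnt4 (0.183) and Ctla2b (0.188), for Bcl6 Sult2b1 (0.101) and 9530082P21Rik (0.116), and for Icos Fbxo33 (0.124) and Slc4a8 (0.127). Sh2d1a was nearest to Zc2hc1a (0.161) and H2-Q3 (0.163), and Ascl2 to Insrr (0.255) and Gm26532 (0.292). Il21 was nearest to the chemokine receptor gene Ccr2 (0.427) and to Spry1 (0.431), Angptl2 to the chemokine receptor gene Cxcr3 (0.405) and to Chst2 (0.524), and Sostdc1 to Ptger2 (0.306) and Chst2 (0.339). Over the 5 transferred libraries alone the closest pair of members was Cxcr5 and Sh2d1a, at 0.280, and the most distant was Ascl2 and Icos, at 1.03. The most distant pair thus joined the member that differed most between transferred libraries to one of the 2 that differed least.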

How the data were processed

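RNA-seq of 6 libraries was analysed, 1 per condition, grouped by the submitters' treatment labels. The authors deposited tables of raw read counts per gene. Per the submitters' processing notes, Trimmomatic 0.36, STAR 2.5.2b, featureCounts of Subread 1.5.2 and the build GRCm38 were used; strand setting, annotation release and handling of multi-mapping reads are not given in the sources used here. TMM factors over all 49315 genes and the models came from edgeR 4.0.16 in R 4.3.3, with the DESeq2 1.42.0 Wald test as an alternative, and ratios, exact intervals and figures from Python 3.11.15, scipy 1.17.1 and matplotlib 3.10.9. Genes needed at least 2 TMM CPM and 10 counts in at least 1 library. A count of 0 was set to a floor of 3 counts for ratios. The ratios carry exact 95% Clopper-Pearson intervals of 2 counts given their sum. Quasi-likelihood tests were robust, called at an adjusted p below 0.05, and rest on 4 residual degrees of freedom (transferred against naive), 3 (MEP1 against No treatment) and 1 (additive model). Their p-values rest on the spread among these libraries, treatment differences included. A standard error is the size of the log2 fold change over the square root of F.

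All 8 members are named in every library. From the other lists, counts in each direction are given with up to 4 genes per list and comparison, those of largest ratio past the size rule, and per member the 2 genes of most similar pattern with at least 10 counts in every transferred library. Lef1, the only lower gene of its list in No treatment over naive, the regulatory T-cell markers and the sex-linked genes were named outside this rule after their values were seen. The members and the lists were chosen with earlier results of these data known. Of the 113 list genes, 113 had a symbol in the tables. Promoter windows are from RefSeq on GRCm38.p6. Alternatives were other scalings and filters, other tests and leaving out libraries.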

Additional observations from a re-analysis of the deposited data

Results flagged for a closer look

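Some members had ratios of opposite sign under the same inhibitor, depending on the presence of the other one, with both counting intervals leaving out 0. Each condition had 1 library, so the difference between such ratios was not tested across replicates. For metformin, without rapamycin (MEP1+Metformin over MEP1+CMC) and with it (the combination over MEP1+Rapamycin), the log2 ratios of Cxcr5 were -0.88 and 0.73. Those of Bcl6 were -0.45 and 0.52, those of Il21 -0.38 and 0.95, and those of Sh2d1a -0.91 and 0.41. Sostdc1 had -0.39 and 0.83. Icos had -0.066 and 0.33, and its first value changes sign with library totals.

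For rapamycin, without metformin (MEP1+Rapamycin over MEP1+CMC) and with it (the combination over MEP1+Metformin), Sostdc1 had log2 ratios of -0.61 and 0.61. Icos had -0.33 and 0.059. Ratios of opposite sign were also found in 22.8% of all genes for metformin and in 19.6% for rapamycin.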

How the results depend on the processing

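No paired analysis was possible because each condition had 1 library and the columns carry no replicate numbers. Of 660 recomputed member ratios 522 moved by less than their counting interval and 138 by more. Leaving out the rRNA-like loci moved no ratio by more than 0.00054 log2, and a change of filter cannot move one. The share that stayed is therefore no measure of stability. The largest shift was 0.69 log2 with library totals, 0.21 with TMM over the genes past the filter (an alternative chosen after seeing the data), 0.18 with DESeq2 size factors and 0.00054 without the rRNA-like loci. For MEP1+Rapamycin over MEP1+CMC the first 3 of these scalings moved the median of all genes by 0.16, 0.16 and 0.13, and library totals moved it by 0.42 to 0.69 in ratios over naive. The stricter filter of 10 counts in all 6 libraries leaves 4 of 8 members by construction (Cxcr5, Bcl6, Sh2d1a and Icos). With it the members past the size rule were 3 for No treatment over naive, 0 for MEP1+CMC over No treatment, 0 for MEP1+Metformin over either of MEP1+CMC and No treatment, and 3 for MEP1+Rapamycin over MEP1+CMC. They were 2 for MEP1+Rapamycin over No treatment, 1 for MEP1+Rapamycin over MEP1+Metformin and, for the combination, 2 over MEP1+CMC, 0 over MEP1+Metformin and 0 over MEP1+Rapamycin. Over naive they were 3 for MEP1+CMC and 2 for each inhibitor library. These size-rule counts under the stricter filter have no share of all genes beside them. The combination over MEP1+CMC had 2 with library totals, the combination over MEP1+Rapamycin had 1 with library totals, DESeq2 size factors or TMM over the genes past the filter, and the combination over No treatment had 0 with the last of these, against 1 with TMM; the cause was not tested.

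Members called against naive were 3, and 5 with library totals, 6 by DESeq2, 5 with legacy quasi-likelihood and 2 to 5 with 1 library left out. Of all 12838 genes, 538, 2482, 2145, 1257 and 327 to 1488 rose in the same order, so calls grew or shrank beyond the members too. For MEP1 over No treatment DESeq2 called 1, which fell, beside 835 rising and 271 falling of all genes, and 0 to 0 were called with 1 library left out. For rapamycin DESeq2 called 2, which fell, beside 24 rising and 53 falling of all genes, and the stricter filter, which drops Angptl2, left 0. Fold changes that turned sign were all small: Bcl6 against naive without MEP1+CMC (-0.012; -0.012 to 0.31 with 1 library left out); for MEP1 over No treatment, Cxcr5 with library totals (0.019) or without MEP1+Rapamycin (0.076; -0.64 to 0.076), and Angptl2 with library totals (0.13), TMM over the genes past the filter (0.0032), without MEP1+Rapamycin (0.21) or without the combination (0.067; -0.35 to 0.21); and Bcl6 for metformin with TMM over the genes past the filter (-0.039) or DESeq2 (-0.028). Leaving out libraries was not run for the additive model, which would have no residual degrees of freedom. Depth limits Ascl2, with 2 to 333 counts, and every ratio of Il21, Angptl2 and Sostdc1 over naive, which rests on 1 to 7 naive counts.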
